A study of Mus musculus with 12 samples.

Results

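Smooth-muscle contractile genes were followed in 3T3 mouse fibroblasts, an established cell line, by taking the 10 gene symbols Acta2, Actg2, Tagln, Cnn1, Myl9, Tpm1, Tpm2, Cald1, Lmod1 and Myocd from a count table of 32544 symbols. All 10 were listed in the table, and 9 of them were among the 14279 genes with enough counts to be tested; Myocd was not. Messenger RNA was sequenced from 4 groups of 3 libraries. One group was untreated. The other groups had received, for 24 h, extracellular vesicles (EVs, membrane-bound particles that cells release) collected from MDA-MB-468, a breast cancer line of human origin. Vesicle donors were either control cells (shCon), cells depleted of CRIPTO by knockdown (shCr) or cells made to overexpress it (CrOE). CRIPTO sits on the cell surface and acts in signalling by the TGF-beta family, and Tdgf1 is its mouse gene. Apart from time, the recipient cells were alike in all 4 groups as far as the labels say. A time is given for the EV groups only. In comparisons with untreated cells, EVs and a difference in time or handling therefore cannot be told apart. No group received particles from another source, so an effect of EVs as such and an effect of these donor cells cannot be told apart. Those columns of the table that carry just the protein's name were assigned to CrOE by elimination, and every CrOE value rests on that step.

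Fibroblasts that become contractile, called myofibroblasts, switch on genes that are otherwise typical of smooth muscle. Their products build a contractile bundle: actin forms the thin filament, tropomyosin lies along it, transgelin, calponin and caldesmon bind it, and a myosin motor with its regulatory light chain pulls on it. Many of these genes are activated by serum response factor (SRF), which binds a short DNA element called the CArG box. SRF works with myocardin or with the myocardin-related factors, which are held in the cytoplasm by unpolymerised actin. TGF-beta is a classical inducer of the programme, and Acta2 is its most used marker.

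Promoter sequence is shown for 3 members because they differ in CArG boxes and because their levels, given further on, followed different orders among the groups. Each sequence is the 250 bases before the transcription start in RefSeq, build GRCm38.p6, written 5′ to 3′ on the gene's strand, with CArG-type matches in capitals. The Acta2 stretch lies on the minus strand at chr19:34255374-34255623, the Myl9 stretch on the plus strand at chr2:156775214-156775463 and the Lmod1 stretch on the plus strand at chr1:135324563-135324812.
Acta2: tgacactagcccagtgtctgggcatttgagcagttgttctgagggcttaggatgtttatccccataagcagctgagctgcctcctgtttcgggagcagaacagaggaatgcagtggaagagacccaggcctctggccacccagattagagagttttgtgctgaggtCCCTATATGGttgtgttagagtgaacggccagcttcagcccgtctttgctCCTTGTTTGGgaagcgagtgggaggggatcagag
Myl9: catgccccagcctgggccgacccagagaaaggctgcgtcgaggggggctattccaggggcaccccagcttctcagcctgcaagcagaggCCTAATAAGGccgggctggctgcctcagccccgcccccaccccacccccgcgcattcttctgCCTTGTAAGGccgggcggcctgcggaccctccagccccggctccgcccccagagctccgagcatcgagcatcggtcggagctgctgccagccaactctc
Lmod1: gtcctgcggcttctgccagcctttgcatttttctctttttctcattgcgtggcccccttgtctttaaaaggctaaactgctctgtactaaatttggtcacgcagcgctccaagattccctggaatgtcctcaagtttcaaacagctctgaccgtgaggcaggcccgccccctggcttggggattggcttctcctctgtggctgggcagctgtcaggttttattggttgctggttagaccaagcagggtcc
A CArG box was searched as CC, 6 bases that are each A or T, and GG, a pattern that covers the same sites on both strands. A looser form allowed 1 G or C among the 6 middle bases. Myl9 held the exact form CCTAATAAGG 161 bases before the start and the looser form CCTTGTAAGG 99 bases before it. Acta2 held the looser form at 2 places, CCCTATATGG 84 bases and CCTTGTTTGG 34 bases before the start. The window of Lmod1 held no match to either form, nor did those of Cald1 (at both of its listed starts), Cnn1, Tpm1 and Tpm2. Across the 32851 promoters of the same length in the table, 1.47% held the exact form, 7.24% the looser form and 0.67% at least 2 matches of either form. A match describes letters only, and factor binding was not measured. Promoters of Actg2, Tagln and Myocd were not used here.

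Libraries held 25960054 to 37774020 estimated counts in all. Levels are CPM, counts scaled to a fixed library total, after scaling between libraries, and they are given per kilobase of exon only where genes are compared with each other. Differences were tested in edgeR (quasi-likelihood F-test, Benjamini-Hochberg adjustment over all 14279 genes), and an adjusted p-value under 0.05 counts as a call. The labels do not say whether replicate libraries came from separate cultures, so these p-values measure the spread between the libraries, which may be technical. Tdgf1 had 0 to 3 counts in each library, so no difference in it was detectable at this depth. The CrOE libraries stood apart from the other groups, with 73.7% of tested genes called against untreated cells, compared with 38.1% after shCon EVs and 37.3% after shCr EVs. One library, shCr replicate 1, stood apart within its group. Without it the members called lower stayed at 9 of 9 against untreated cells and 4 of 9 against shCon EVs. Over all fits that left out 1 library, genes called in these comparisons ranged from 4254 to 6698 and from 632 to 1396.

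In untreated cells the members spanned several orders of magnitude per kilobase of exon. Acta2 led at 617 CPM per kilobase, below the non-muscle actins Actb at 1162 and Actg1 at 1043. Next came Tpm1 at 155, Tagln at 108, Cald1 at 93.9 and Myl9 at 77.2 CPM per kilobase. Tpm2 stood at 38.8 and Actg2 at 20.1, while Lmod1 at 2.53 and Cnn1 at 0.542 CPM per kilobase were low. Smooth-muscle markers outside the member list differed in level. Myh11, the smooth-muscle myosin heavy chain, averaged 0.320 CPM and Des, desmin, 0.873 CPM in untreated cells. Kcnmb1, Synpo2 and Itga8 were low as well. Smtn, smoothelin, averaged 50.2 CPM, Aoc3 24.4 CPM and Synm, synemin, 17.4 CPM in the same cells, so such markers were not missing as a set. The cells thus carried abundant RNA of several contractile genes with little RNA of Myh11 and Des.

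All 9 tested members had lower mean levels after each kind of EV than in untreated cells. After shCon EVs 8 of 9 were called lower, with Cald1 the exception, against 20.2% of all tested genes called lower. After shCr EVs 9 of 9 were called lower, against a background of 18.8%, and after CrOE EVs 9 of 9, against 37% of all genes. No member was called higher in these 3 comparisons. The median log2 fold change over the 9 members was -1.10 for shCon, -1.52 for shCr and -1.76 for CrOE EVs, where the median of all tested genes was 0.0069, 0.020 and 0.0078. The 3 comparisons share the untreated libraries, so they are not independent of each other. Cnn1 passed the filter on low counts only through the untreated group, where it is high. It is counted in the 8 of 9 and 9 of 9 above and in the medians. Where at least 10 counts were required in each library, which leaves Cnn1 out, 7 of 8, 8 of 8 and 8 of 8 members were called lower. The shares of all tested genes given above are those of the main filter, and shares under the stricter filter are not reported here. In bulk RNA, fewer contractile cells and less contractile RNA per cell cannot be told apart.

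**Figure D1:**
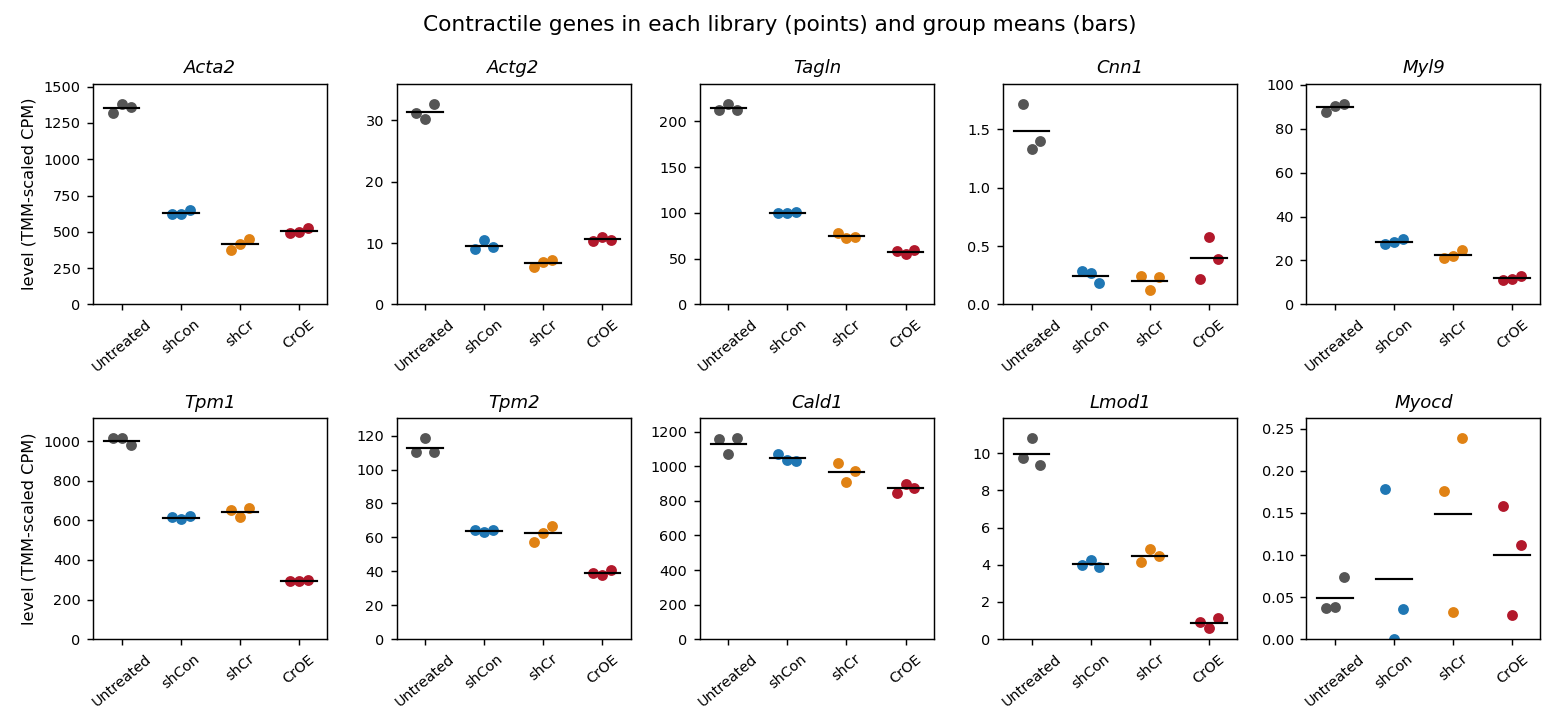
Level of each contractile gene in every library, as TMM-scaled CPM on a linear axis from 0 that differs between panels, with 1 point per library and a bar at the mean of the 3 libraries of a group. Apart from Cald1 and Myocd, the 3 untreated libraries lie above those of every EV group in each panel, while the order of the EV groups changes from gene to gene. The share of all genes with such separation is not given here, and Cnn1 passed the low-count filter only through the untreated group.

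The contractile actins were considered first. Acta2, smooth-muscle alpha actin, stood at 1321, 1382 and 1360.4 CPM in untreated cells and at 619.5, 625 and 651 CPM after shCon EVs. It stood at 377, 415 and 448 CPM after shCr EVs and at 491, 502 and 526 CPM after CrOE EVs. The 4 groups did not overlap, and the lowest libraries were those given shCr EVs. Against untreated cells Acta2 was 2.14-fold lower after shCon EVs (log2 fold change -1.10, SE 0.061, adjusted p = 4.47e-08), 3.28-fold lower after shCr EVs (-1.71, SE 0.062, adjusted p = 2.05e-09) and 2.68-fold lower after CrOE EVs (-1.42, SE 0.062, adjusted p = 2.72e-10). Actg2, smooth-muscle gamma actin of visceral muscle, was far scarcer, at 31.2, 30.2 and 32.7 CPM in untreated cells and 8.95, 10.4 and 9.37 CPM after shCon EVs. After shCr EVs it stood at 6.10, 6.92 and 7.26 CPM, and after CrOE EVs at 10.3, 10.9 and 10.6 CPM. Untreated libraries were again highest and shCr libraries lowest, and the shCon and CrOE libraries overlapped in range. The falls against untreated cells were 3.27-fold, 4.62-fold and 2.96-fold for shCon, shCr and CrOE EVs. Actin genes resemble each other, but at most 1.39% of the 31-base stretches of a member's transcripts occurred in another gene.

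The actin-binding proteins differed from each other in the size of their response. Tagln, transgelin, which bundles actin filaments, stood at 213, 219 and 212 CPM in untreated cells and 100.5, 99.5 and 101 CPM after shCon EVs. It stood at 78.2, 73.1 and 74.0 CPM after shCr EVs and at 58.0, 54.6 and 59.1 CPM after CrOE EVs. All 4 groups were separate, with CrOE lowest, and the falls against untreated cells were 2.14-fold, 2.86-fold and 3.75-fold (adjusted p = 7.88e-09, 1.18e-09 and 2.19e-12). Exons of Tagln overlap the genes Gm48529 and Pcsk7 on the opposite strand, and whether counting used strand is not given in the sources used here. Cnn1, calponin, a brake on the actomyosin motor in smooth muscle, rested on few counts: 47, 35 and 38 in untreated libraries, 5 to 8 after shCon EVs, 4 to 9 with shCr EVs and 7 to 20 with CrOE EVs. Its mean was 1.48 ± 0.207 CPM (SD, n = 3) in untreated cells and 0.204 to 0.399 CPM in the EV groups, with log2 fold changes of -2.58 (SE 0.34), -2.83 and -1.87. The EV groups did not overlap with untreated cells, and each of the 3 falls was called. Cnn1 passed the low-count filter only through the untreated group, so its calls and lack of overlap are description only. Cald1, caldesmon, which binds actin and tropomyosin, changed least of the 9: it stood at 1160.0, 1069 and 1161 CPM in untreated cells and 1069.8, 1039 and 1033 CPM after shCon EVs. After shCr EVs it stood at 1018, 910.1 and 976 CPM, and after CrOE EVs at 845, 897 and 877 CPM. The shCon range overlapped with the untreated range and the difference was not called (log2 fold change -0.11, adjusted p = 0.135), whereas the falls after shCr EVs (-0.22, adjusted p = 0.00613) and CrOE EVs (-0.37, adjusted p = 4.12e-05) were. Cald1 has 18 annotated transcripts, among them a smooth-muscle form and shorter non-muscle forms, and counts per gene do not separate them.

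The tropomyosins, rods that lie along actin and set which proteins reach it, fell together. Tpm1 stood at 1013, 1013.5 and 979 CPM in untreated cells and 616, 605 and 623 CPM after shCon EVs. It stood at 654, 615 and 661 CPM after shCr EVs and at 294, 292 and 301 CPM after CrOE EVs. The shCon and shCr libraries overlapped, and the CrOE libraries lay lowest. The falls against untreated cells were 1.63-fold, 1.56-fold and 3.39-fold. Tpm2 ranged from 110.1 to 118 CPM in untreated cells, 63.3 to 64.3 CPM after shCon EVs, 57.3 to 66.7 CPM with shCr EVs and 37.7 to 40.8 CPM with CrOE EVs. As with Tpm1, untreated libraries were highest, CrOE libraries lowest and the shCon and shCr ranges overlapped, with falls of 1.77-fold, 1.81-fold and 2.88-fold. Tpm1 has 21 annotated transcripts that include muscle and non-muscle forms, which counts per gene do not separate.

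Myl9 and Lmod1 gave the steepest falls after CrOE EVs. Myl9, the regulatory light chain whose phosphorylation starts smooth-muscle contraction, stood at 87.7, 90.2 and 91.3 CPM in untreated cells and 27.6, 28.5 and 29.6 CPM after shCon EVs. It stood at 20.9, 22.0 and 24.7 CPM after shCr EVs and at 11.2, 11.8 and 12.8 CPM after CrOE EVs. The groups were separate, and the falls against untreated cells were 3.14-fold, 3.97-fold and 7.51-fold (adjusted p = 5.59e-09, 1.36e-09 and 1.88e-12). Lmod1, leiomodin, which nucleates actin filaments in smooth muscle, stood at 9.74, 10.8 and 9.38 CPM in untreated cells and 3.97, 4.28 and 3.85 CPM after shCon EVs. It stood at 4.12, 4.87 and 4.45 CPM after shCr EVs and at 0.920, 0.582 and 1.12 CPM after CrOE EVs. The shCon and shCr ranges overlapped and the CrOE libraries were below all others, 11.3-fold lower than untreated cells (log2 fold change -3.50, SE 0.17, adjusted p = 7.28e-10). Myocd, myocardin, the SRF partner that drives smooth-muscle identity, had 0 to 9 counts in every library and was not tested.

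**Figure D2:**
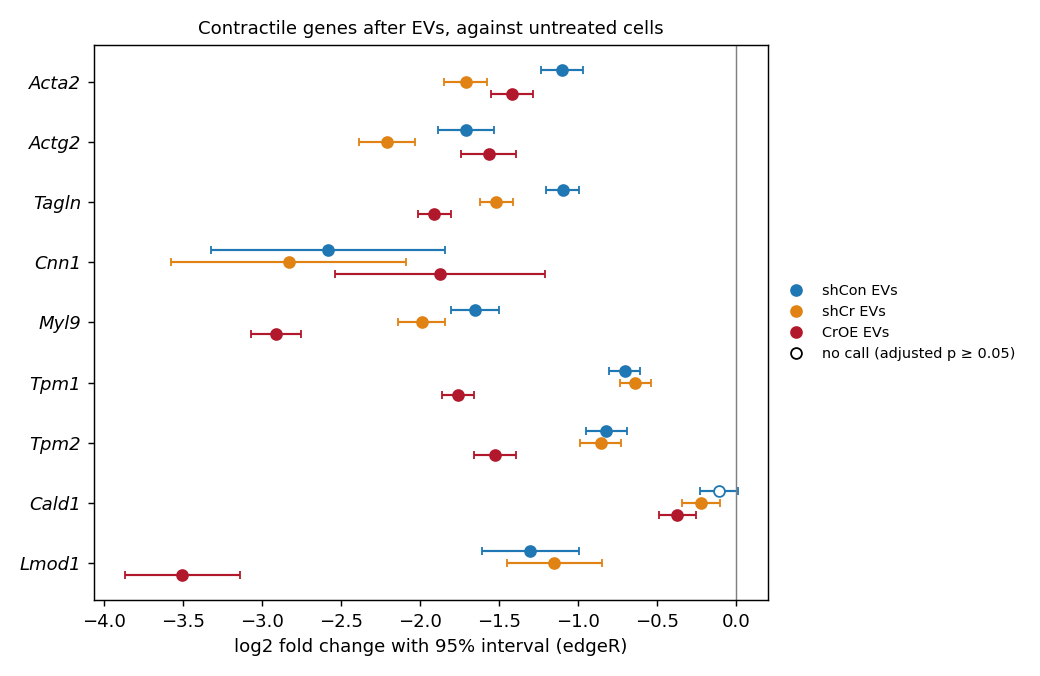
Log2 fold change of the 9 tested members after each kind of EV relative to untreated cells, with 95% confidence intervals from the edgeR model and open points where the difference was not called. All points lie below 0, and the interval of Cald1 after shCon EVs reaches 0.

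Pairs of EV groups were compared next, to see if contractile genes differed between the kinds of donor cell. The shCon cells were the only control donors, and no separate control for overexpression was among the groups. In comparisons with CrOE EVs, the CRIPTO level and the way the donors were made therefore cannot be told apart. Between shCr and shCon EVs, 4 of 9 members were lower with shCr EVs and none was higher, where 8.73% of all tested genes were called, 3.51% lower and 5.22% higher. That background of 1247 genes fell to 641 in a model of these groups alone and to 688, 632 and 666 without shCon replicate 1, 2 or 3. The 4 members were Acta2 (log2 fold change -0.61, adjusted p = 6.99e-05), Actg2 (-0.50, adjusted p = 0.0031), Tagln (-0.42, adjusted p = 1.72e-04) and Myl9 (-0.34, adjusted p = 0.00971). The call of Myl9 was lost in a model of these groups alone (adjusted p = 0.0573). The tropomyosins, caldesmon and leiomodin did not pass the test: the log2 difference was 0.07 for Tpm1 (95% interval -0.03 to 0.16), -0.04 for Tpm2 (-0.17 to 0.09), -0.11 for Cald1 (-0.23 to 0.005) and 0.15 for Lmod1 (-0.17 to 0.47). For Cnn1 the interval ran from -1.21 to 0.71, too wide at 4 to 9 counts a library to exclude a difference of the size seen in Acta2.

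Between CrOE and shCon EVs, 7 of 9 members were lower with CrOE EVs, where 72.6% of all tested genes were called and 36.1% were called lower; no member was higher. Lmod1 (-2.20), Myl9 (-1.26) and Tpm1 (-1.05) had the largest log2 differences, followed by Tagln (-0.81), Tpm2 (-0.71), Acta2 (-0.32) and Cald1 (-0.26). Actg2 was not called (0.14, 95% interval -0.04 to 0.32), and neither was Cnn1 (0.71, -0.14 to 1.56). Between CrOE and shCr EVs, 6 members were lower with CrOE EVs and 3 were higher, where 73.9% of all tested genes were called, 37% lower and 36.9% higher. The 3 higher members were Acta2 (0.29, adjusted p = 7.40e-04), Actg2 (0.64, adjusted p = 1.39e-05) and Cnn1 (0.96, adjusted p = 0.0432). Both smooth-muscle actins were thus higher with CrOE than with shCr EVs, while Tpm1 (-1.12), Tpm2 (-0.67), Myl9 (-0.92), Lmod1 (-2.35), Tagln (-0.39) and Cald1 (-0.15, adjusted p = 0.0256) were lower. The Cnn1 and Cald1 calls in this comparison did not hold throughout: without a low-count filter the adjusted p was 0.0645 and 0.0574, and without CrOE replicate 2 that of Cnn1 was 0.221.

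**Figure D3:**
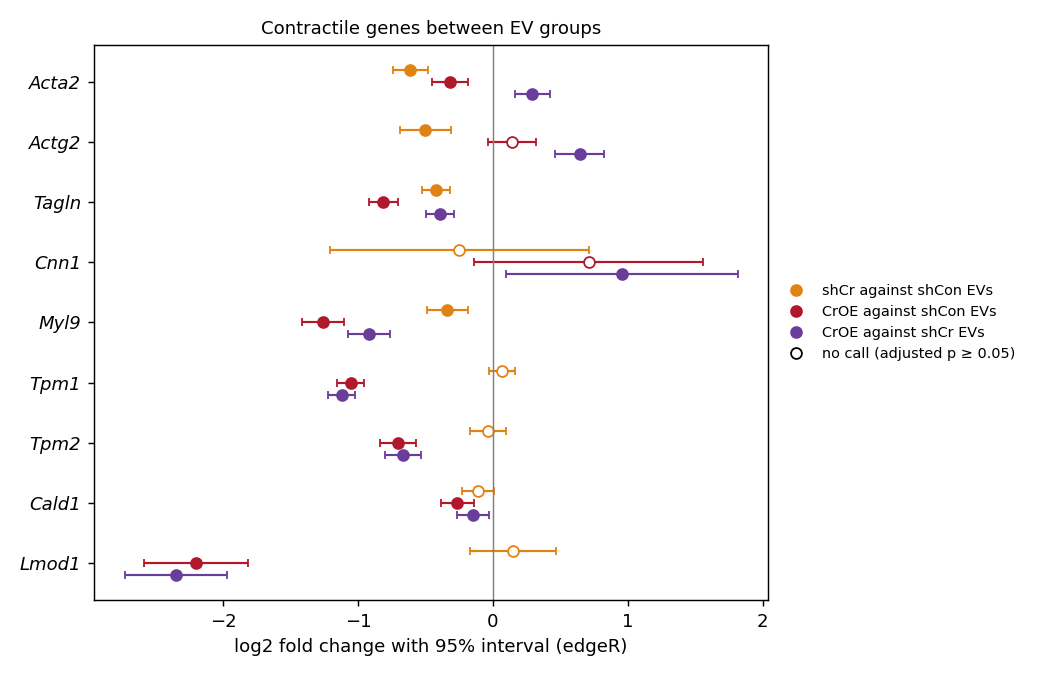
Log2 difference of the 9 tested members between pairs of EV groups, with 95% confidence intervals from the edgeR model and open points where the difference was not called. For shCr against shCon the points of Acta2, Actg2, Tagln and Myl9 lie below 0 with intervals that leave out 0, and for CrOE against shCr the actins and Cnn1 lie above 0 while the other members lie below it.

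The order of the groups therefore differed among members. Acta2 followed untreated, shCon, CrOE and shCr from highest to lowest, with each neighbouring pair called. Actg2 had shCr lowest, with shCon and CrOE not called apart. Tagln and Myl9 followed untreated, shCon, shCr and CrOE, each step being called. Tpm1, Tpm2 and Lmod1 had CrOE lowest, with shCon and shCr not called apart. Across the 12 libraries, Pearson's r of log2 CPM was 0.969 between Acta2 and Actg2, 0.989 between Tagln and Myl9 and 0.987 between Tpm1 and Lmod1, but 0.49 between Actg2 and Lmod1. These correlations are descriptions over libraries that fall into 4 groups.

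Ratios between related genes within a library do not depend on scaling between libraries. On the per-kilobase scale, Acta2 made up 21.7 ± 0.428% of the summed RNA of the 6 actin genes in untreated cells (SD, n = 3 libraries, as for the ratios that follow), 17.7 ± 0.0775% after shCon EVs, 12.1 ± 0.367% with shCr EVs and 19.7 ± 0.612% after CrOE EVs. The single libraries were 21.3%, 21.7% and 22.2% in untreated cells, 17.6%, 17.7% and 17.7% after shCon EVs, 11.8%, 12.2% and 12.5% with shCr EVs and 19.6%, 19.1% and 20.3% after CrOE EVs. The groups did not overlap, and the shCr share lay farthest below the untreated share. Tagln relative to Tagln2, its widely expressed relative, was 84.8 ± 3.99% in untreated cells, 42.6 ± 0.358% after shCon EVs, 36.0 ± 2.64% with shCr EVs and 24.5 ± 2.06% after CrOE EVs. Myl9 relative to its non-muscle relatives Myl12a and Myl12b together was 50.1 ± 0.744%, 18.2 ± 0.438%, 13.0 ± 1.16% and 11.0 ± 0.742% in the same order of groups. In both ratios every EV library lay below every untreated library. Tropomyosin behaved otherwise: Tpm1 and Tpm2 together were 26.0 ± 0.612% of the 4 tropomyosin genes in untreated cells, a higher 30.5 ± 0.236% after shCon EVs and 30.1 ± 1.35% after shCr EVs, and a lower 16.0 ± 0.437% after CrOE EVs. Tpm4, a non-muscle tropomyosin, itself fell from 1085 CPM in untreated cells to 479 CPM with shCon EVs and 508 CPM with shCr EVs. With CrOE EVs it fell to 590.5 CPM.

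**Figure D4:**
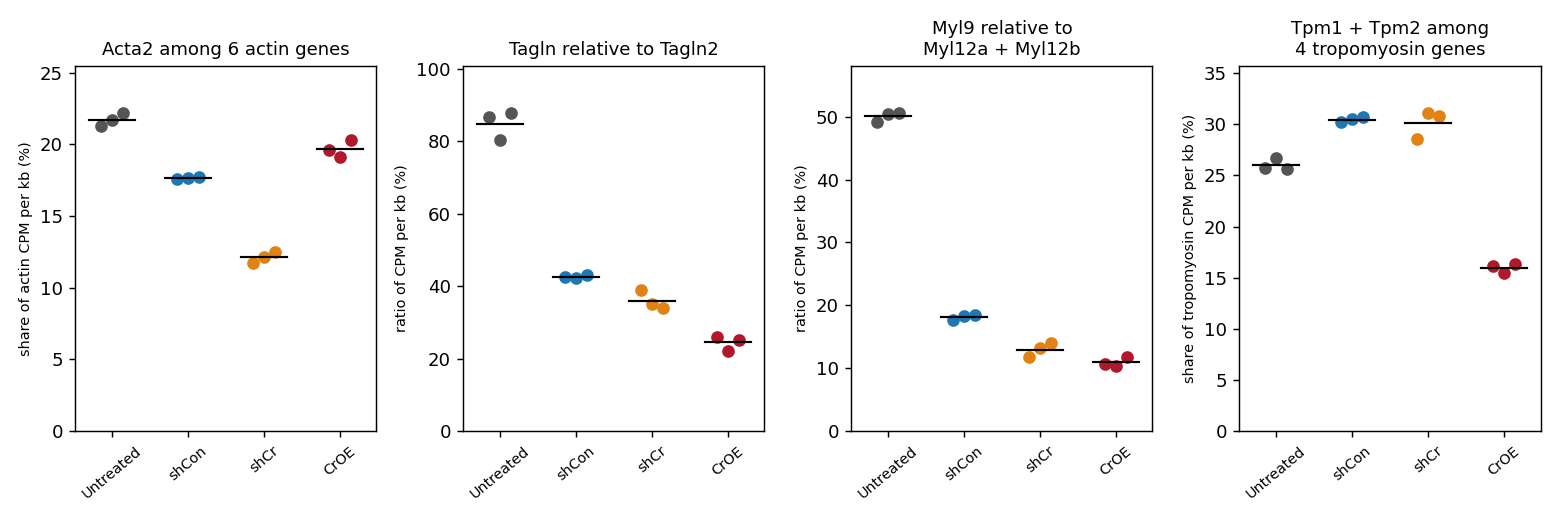
Makeup of related genes within each library, in percent on the per-kilobase scale, with 1 point per library and a bar at the mean of a group. Acta2 takes its smallest share of actin after shCr EVs, and the share of Tpm1 and Tpm2 is above the untreated libraries after shCon and shCr EVs and below them after CrOE EVs.

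The rest of the contractile machinery was read from gene lists. Among 13 non-muscle relatives of the members, none was called higher, and 9, 8 and 10 were called lower after shCon, shCr and CrOE EVs (median log2 fold change -0.25, -0.23 and -0.59). Of all tested genes, 20.2%, 18.8% and 37% were called lower and 18%, 18.4% and 36.7% higher in these comparisons. Actb, the chief non-muscle actin, fell from 3113 ± 25.3 CPM in untreated cells (SD, n = 3) to 1817 ± 59.4, 1928 ± 129 and 1330.0 ± 43.2 CPM, and Actg1 fell with log2 fold changes of -0.67, -0.71 and -1.25. Cnn2, the non-muscle calponin, fell by 1.82 on the log2 scale after CrOE EVs. A fall in actin RNA was thus not limited to the smooth-muscle forms. Among 16 stress fibre and focal adhesion genes, which anchor the contractile bundle, 14, 12 and 13 were lower and 0, 0 and 2 higher (median -0.37, -0.49 and -0.80), beside the same shares of all tested genes. Vcl, vinculin, which ties actin to adhesions, had log2 fold changes of -0.74, -0.61 and -1.50, and Palld, palladin, a stress fibre protein, of -0.53, -0.64 and -1.11, each called. Tes, testin, another adhesion protein, went the other way after CrOE EVs, from 102 to 335 CPM (log2 fold change 1.72). Without shCon replicate 1 or 2 or untreated replicate 3, 9 of these 16 genes were called after shCon EVs.

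Genes of the myosin motor and its switches went in both directions. Of 14 tested, 2 were higher and 2 lower after shCon EVs, 2 and 3 after shCr EVs, and 3 and 5 after CrOE EVs (median -0.02, -0.11 and -0.11), while 38.1%, 37.3% and 73.7% of all tested genes were called in either direction. The number called was thus not above the background. The 4 calls after shCon EVs varied from 1 to 9 when single libraries were left out. Mylk, the kinase that phosphorylates the light chain encoded by Myl9, averaged 35.1 ± 2.13 CPM in untreated cells, 28.8 ± 2.38 after shCon EVs, 23.5 ± 4.06 with shCr EVs and 1.73 ± 0.13 after CrOE EVs (SD, n = 3). Its log2 fold change was -0.29 after shCon EVs (adjusted p = 0.0534), -0.58 after shCr EVs (adjusted p = 9.71e-04) and -4.34 after CrOE EVs (adjusted p = 1.66e-11). Myh9, the main non-muscle myosin heavy chain, was not called after shCon (0.03) or shCr EVs (-0.23) and fell by 0.49 on the log2 scale after CrOE EVs. Ppp1cb, a catalytic subunit of the phosphatase that opposes Mylk, was lower after shCon EVs (-0.35, adjusted p = 0.0431), a call lost in 8 of 12 fits that left out 1 library (adjusted p up to 0.134). The light chain and its kinase therefore both fell after CrOE EVs, and the heavy chain Myh9 by much less. Another non-muscle heavy chain, Myh10, averaged 331.7 CPM in untreated cells and 332.3 CPM after CrOE EVs.

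Regulators that act through the CArG box also went in both directions. Of 11 tested genes for SRF, its partners and their opponents, 3 were higher and 4 lower after shCon EVs, 3 and 4 after shCr EVs, and 4 and 3 after CrOE EVs (median 0.06, -0.11 and -0.09). These 7 of 11 calls in each comparison stand beside the 38.1%, 37.3% and 73.7% of all tested genes called. Srf averaged 64.4, 48.5, 56.5 and 60.5 CPM in untreated cells and after shCon, shCr and CrOE EVs, with log2 fold changes of -0.41 (adjusted p = 2.82e-04), -0.19 (adjusted p = 0.0327) and -0.09 (adjusted p = 0.206). The Srf call after shCr EVs was lost in a model of the groups compared (adjusted p = 0.126) and without a low-count filter (adjusted p = 0.0562). It was also lost in 3 of 12 fits that left out 1 library (adjusted p up to 0.0972). Mkl1, the listed symbol of myocardin-related factor A, fell by 0.41 and 0.40 on the log2 scale after shCon and shCr EVs and was not called after CrOE EVs (-0.08). Mkl2, factor B, was not called in these comparisons, but after CrOE EVs (-0.18, adjusted p = 0.0602) it was called with library totals only (adjusted p = 0.0415), with at least 10 counts in every library (0.0274), with DESeq2 (0.0456) and without untreated replicate 2 (0.00662), shCr replicate 1 (0.0406) or CrOE replicate 2 (0.0435). Klf4, a factor that represses smooth-muscle genes, rose from 36.5 CPM to 68.3, 78.7 and 129.8 CPM (log2 fold change 0.90, 1.11 and 1.83, adjusted p = 4.07e-06, 5.70e-07 and 5.39e-10). RNA levels say nothing of where these factors sit in the cell or of their activity. Among 14 other smooth-muscle differentiation genes, 7, 7 and 11 were lower and 1 higher in each comparison (median -0.34, -0.35 and -0.94), against 20.2%, 18.8% and 37% of all tested genes called lower. Aoc3, an amine oxidase abundant in smooth muscle, averaged 24.4 ± 3.03 CPM in untreated cells and 4.12, 3.60 and 1.51 CPM after the 3 kinds of EV, with log2 fold changes of -2.56, -2.76 and -4.01.

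**Figure D5:**
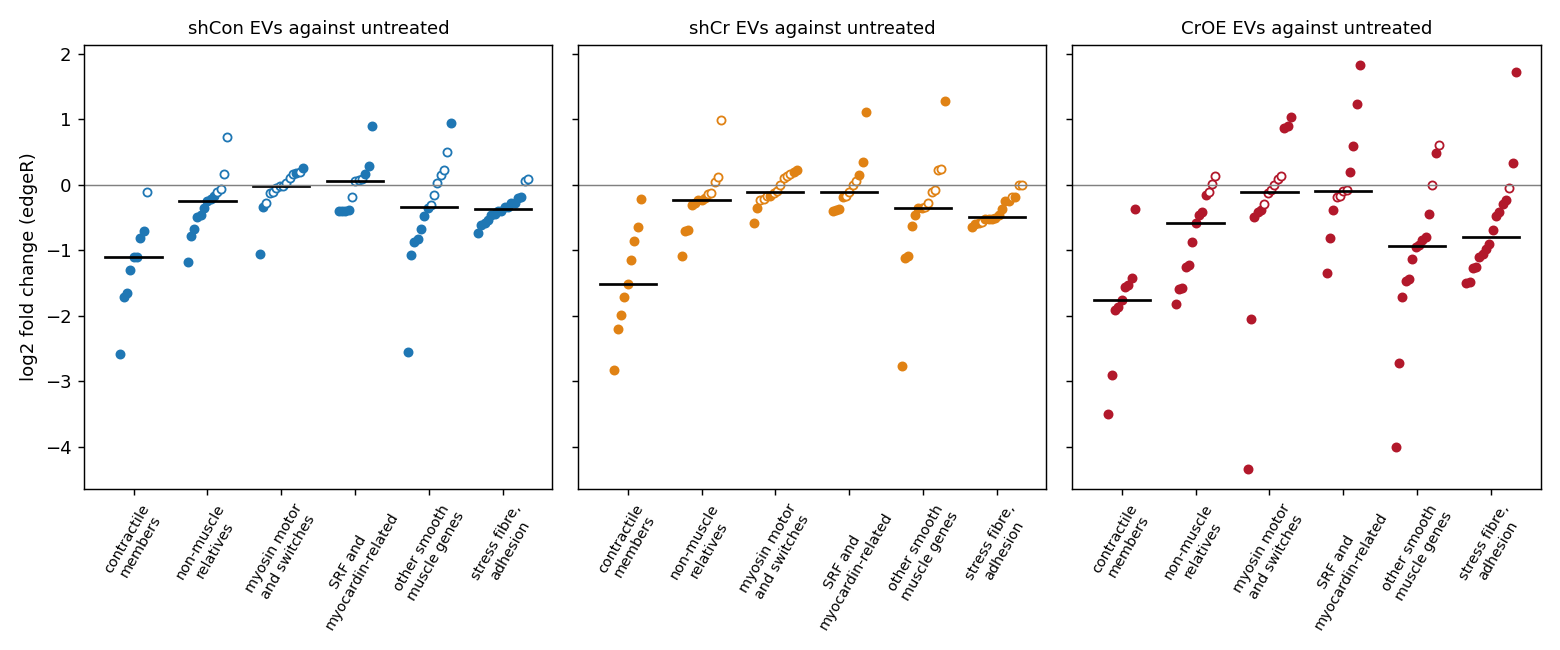
Log2 fold change of each tested gene of the contractile members and of 5 related lists after each kind of EV relative to untreated cells, with 1 point per gene (open where not called) and a bar at the median of a list. The members lie below 0 throughout, the stress fibre and non-muscle lists lie mostly below 0, and the myosin and SRF lists spread to both sides.

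Between shCr and shCon EVs, called genes of these lists included Myh10, a non-muscle myosin heavy chain (-0.52, adjusted p = 5.81e-04), Flna, filamin A, which crosslinks actin (-0.32, adjusted p = 0.0123), and Cnn2 (0.25, adjusted p = 0.0117). The calls of Flna and Cnn2 were lost in a model of these groups alone (adjusted p = 0.0748 and 0.0531).

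Among the genes most like Acta2 in level across the 12 libraries, by Pearson's r of log2 CPM among 11557 genes whose average log2 CPM reached 1, were Fblim1 (r = 0.996) and Parpbp, Fanci and Fkbp10 (each 0.981). Fblim1, a filamin-binding protein of cell adhesions, averaged 105.6 ± 1.82 CPM in untreated cells, 55.4 ± 1.40 after shCon EVs, 36.6 ± 4.04 with shCr EVs and 42.0 ± 0.73 after CrOE EVs (SD, n = 3). Its group means had the same order as those of Acta2, as had those of Parpbp, Fanci and Fkbp10. These genes were chosen for their likeness to Acta2 in the same libraries, so the shared order is no separate result. Members other than Acta2 were not ahead of these genes, the closest being Actg2 at 0.969.

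Markers of cell identity were read in the same libraries. Fibroblast markers, 10 in number, summed to 15007 to 16038 CPM in untreated libraries, 19563 to 19805 after shCon EVs, 12329 to 13951 with shCr EVs and 6380 to 6675 after CrOE EVs. The higher sum after shCon EVs came from Col1a1, a collagen chain (4535 to 6557 CPM), and Fn1, fibronectin (4147 to 7237 CPM), while Thy1, Dcn and S100a4 (965 to 401 CPM) fell. Of the 10 markers, 3 were called higher and 3 lower after shCon EVs, and 2 higher and 5 lower after shCr EVs. After CrOE EVs 9 were called lower. The median log2 fold change in these comparisons was 0.09, -0.28 and -1.97. Of all tested genes, 18%, 18.4% and 36.7% were called higher and 20.2%, 18.8% and 37% lower. Lum, lumican, had 93 to 122 counts in untreated libraries and 0 to 1 after CrOE EVs. Of 5 pericyte markers only Notch3, a receptor, was tested, and it averaged 27.5 CPM in untreated cells, 17.7 after shCon EVs, 18.7 with shCr EVs and 2.24 with CrOE EVs. The other pericyte markers, Rgs5, Cspg4, Kcnj8 and Abcc9, had 0 to 10 counts in every library. Markers of other cells were low: 7 striated muscle markers summed to 1.37 to 7.44 CPM over all libraries, 6 epithelial markers to 0.966 to 3.30 CPM and 5 endothelial markers to 0.589 to 2.56 CPM. Their highest sums were in CrOE libraries. Epcam was at 0 counts in every library, while Cldn4, another epithelial marker, had 0 in untreated cells and 36 to 40 after CrOE EVs. Haematopoietic markers, 5 in number, summed to 3.35 to 10.3 CPM. The part of these markers in the fall of the contractile genes was not tested.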

How the data were processed

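The deposited file held estimated counts for each gene symbol and library, not scaled between libraries; 39.8% of its values were not whole, and they were rounded. The submitters' processing notes name featureCounts and mm39 without a role; aligner, annotation and strand use in counting are not given in the sources used here. No column was left unused (0). Genes were filtered with filterByExpr and scaled by TMM, and edgeR 4.0.16 (R 4.3.3; glmQLFit and glmQLFTest) was fitted to all 12 libraries with a mean per group and 8 residual degrees of freedom. DESeq2 1.42.0 was an alternative, beside other scalings and filters, a replicate block, a model of only the groups compared and leaving out each library. The design had assumed raw counts, and the same test was kept. Exon lengths, transcripts and shared 31-base stretches came from GENCODE M21 (GRCm38).

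The members and gene lists were chosen with earlier results of these data known. Named were all members, Tdgf1, Actb, Actg1, Mylk, Myh9, Srf, Mkl1, Mkl2, and from each of 5 lists the called gene with the largest absolute change in each comparison with untreated cells and in shCr against shCon EVs among genes whose average log2 CPM reached 1, and the 5 genes most like Acta2. Of the genes this rule gave, 2 are not reported here. Other genes singled out, the ratios between relatives and the 3 promoters printed were chosen after values were seen. Counts of a library limit precision, and PCR copies were not separated from molecules.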

Additional observations from a re-analysis of the deposited data

How the results depend on the processing

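Members called kept within 1.5 times of their number under each alternative, in each of the 6 comparisons. Of the log2 fold changes recomputed for members and other named genes, 2290 kept direction and call, 37 lost the call, 13 gained it and 7 changed sign. Alternatives for gene lists and genes that are no member were chosen after seeing the data. Genes called between shCr and shCon EVs fell from 1247 to 641 in a model of these groups alone, and ranged from 632 to 1396 with single libraries left out, the low values being those without shCon replicate 1 (688), 2 (632) or 3 (666). Calls in the myosin motor list after shCon EVs went from 4 to 2 without a low-count filter and to 7 in a model of the groups compared, and ranged from 1 to 9 with single libraries left out (9 without shCr replicate 1). After shCr EVs they went from 5 to 3 in that model and ranged from 3 to 6. Stress fibre calls after shCon EVs ranged from 9 to 14. Log2 fold changes near 0 changed sign with a library left out: Myh9 (-0.0356 to 0.0876) and Mkl2 (-0.0203 to 0.122) after shCon EVs, Mkl2 after shCr EVs (-0.0822 to 0.0599), and Tpm2 between shCr and shCon EVs (-0.089 to 0.0158). The cause was not tested.

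Cnn1 between CrOE and shCr EVs lost its call with DESeq2 (adjusted p = 0.0763) and in 8 of 12 fits that left out 1 library; against shCon EVs it was called without CrOE replicate 1 (adjusted p = 0.0303). Cald1 between CrOE and shCr EVs lost its call in 5 of 12 such fits (adjusted p up to 0.0944).

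Replicate numbers are shared among the groups but not stated to mark a batch. Deviations of same-numbered libraries correlated at -0.383 to 0.605, with 8 of 18 over 0.1, and libraries correlated best with their own number in 14 of 36 comparisons, so the numbers were not taken to pair the samples. With the replicate number as a block, members called were 8, 9 and 9 against untreated cells (shCon, shCr, CrOE), 4 for shCr against shCon, 7 for CrOE against shCon and 8 for CrOE against shCr EVs, where Cnn1 had an adjusted p of 0.0666. Shares of all tested genes called with the block are not reported here. Mylk after shCon EVs was called with the block (adjusted p = 0.0479). Depth limits Cnn1 and Myocd.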

Other observations

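Within the lists, some genes rose and others fell after CrOE EVs, and those named here were chosen after their values were seen. In the myosin list 3 genes were called higher and 5 lower, and in the adhesion list 2 and 13. Of all tested genes, 36.7% were called higher and 37% lower. In the myosin list, where Mylk fell, Rock2, a kinase that inhibits the light chain phosphatase, rose from 108 ± 9.35 CPM in untreated cells (SD, n = 3) to 196 ± 3.98 CPM (log2 fold change 0.86, edgeR adjusted p = 9.03e-08). Arhgef11, an activator of RhoA, rose from 84.2 ± 3.17 to 173 ± 3.37 CPM (1.04, edgeR adjusted p = 2.29e-09), and Ppp1r14b, a phosphatase inhibitor, from 107 ± 4.69 to 200.3 ± 4.30 CPM (0.90, edgeR adjusted p = 1.89e-08). In the adhesion list, Zyx, zyxin, rose with Tes (log2 fold change 0.34, edgeR adjusted p = 0.007), whereas Parva, parvin, and Ilk, integrin-linked kinase, 2 parts of one adhesion complex, fell by 1.48 and 1.28 on the log2 scale. These calls held under every alternative run.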
